A study of Homo sapiens with 6 samples.

Results

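The genes of gluconeogenesis were examined in A2780, a human ovarian cancer cell line, with and without recombinant CRMP2. They were picked by name as PCK1, PCK2, PC, FBP1, FBP2, G6PC and G6PC3, which are 7 of the 44591 genes counted in each library. The choice was made with the r-CRMP2 contrast already known, PCK1 being the member it singled out, so the members' values in that contrast are given as a description without a test. Gluconeogenesis makes glucose from lactate, pyruvate, amino acids and glycerol, and is known above all from liver and kidney cortex. It shares its reversible reactions with glycolysis and goes around the irreversible ones with enzymes of its own. PC makes oxaloacetate from pyruvate in mitochondria, the PEPCK isozymes PCK1 (cytosolic) and PCK2 (mitochondrial) turn oxaloacetate into phosphoenolpyruvate, FBP1 and FBP2 remove a phosphate from fructose-1,6-bisphosphate, and G6PC and G6PC3 release free glucose from glucose-6-phosphate. In cancer cells that make little or no glucose, PEPCK and PC are also known to supply biosynthesis from non-sugar carbon.

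The libraries came from wild-type A2780 cells grown in DMEM with serum, 3 untreated and 3 given r-CRMP2 at 40 ng/ml for 48 h. CRMP2 (DPYSL2) is a microtubule-associated protein, and the study asked which pathways change in ovarian cancer cells that meet the form released by fibroblasts. Polyadenylated RNA was sequenced, so the values are transcript levels and not enzyme amounts or fluxes. A single cell line was used, no vehicle or other protein is named for the untreated cells, and the labels do not say that replicates were separate cultures, so p-values measure only the spread between these libraries.

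Total counts were 21888530 to 25711353 per library, and 22438 to 26302 genes had at least 1 count. The lowest number of genes was in r-CRMP2 replicate 3, although that library had the highest total count. Replicates 1 and 2 of its group had 25488 and 25152 genes with a count, and the cause was not tested. Of the genes listed, 16222 passed edgeR's filter on low counts. The counts were scaled with TMM factors, between 1.10 and 1.12 for untreated and between 0.879 and 0.922 for r-CRMP2 libraries. The scaling matters for small differences, since the typical gene shifts with it (median log2 fold change over all genes tested -0.03 after TMM, -0.34 when only library size is used). Levels are given below both as deposited TPM, which divides by transcript length and allows genes to be compared, and as CPM, the count scaled to a common library total, after TMM scaling. The keratins of the ovarian epithelium list were high (KRT7 at 617 to 1004, KRT8 at 1061 to 1393 and KRT18 at 1750 to 2024 TPM). EPCAM (5.44 to 7.39 TPM), PAX8 (1.40 to 2.65 TPM) and MUC16 (1.17 to 2.81 TPM) were low, so the list's summed TPM is mainly keratin. WT1 and CDH1 of that list stayed under 1 TPM in every library. Of 10 hepatocyte markers, 9 stayed under 1 TPM in every library, albumin among them, and the exception was CPS1, the mitochondrial carbamoyl phosphate synthetase, at 228 to 320.1 TPM. LRP2, CUBN, SLC34A1 and SLC22A6 of the 6 proximal tubule markers were under 1 TPM too, as was FAP of the 8 fibroblast markers. The rest of both lists were above 1 TPM in every library. These were AQP1 (7.64 to 10.5 TPM) and SLC5A2 (3.37 to 7.52 TPM) of the tubule list. Of the fibroblast list they were COL1A1 (94.2 to 190.8 TPM), COL1A2 (17.8 to 20.7 TPM), COL3A1 (16.6 to 23.5 TPM), ACTA2 (10.1 to 13.3 TPM), PDGFRB, DCN and LUM. Summed TPM in the untreated and r-CRMP2 libraries was 4199 to 4409 and 3436 to 3767 for the ovarian list, 282 to 321 and 229 to 251 for the hepatocyte list, 12.7 to 17.3 and 11.4 to 14.9 for the tubule list, and 226 to 266 and 158 to 170.3 for the fibroblast list. After TMM scaling the adjusted p threshold was passed by 1 higher and 2 lower genes of the ovarian list, 0 of the hepatocyte list (CPS1 at a log2 fold change of -0.00, adjusted p = 0.986), 1 higher and 0 lower of the tubule list, and 2 higher and 2 lower of the fibroblast list. The part of these genes in the results was not tested.

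PCK1 was the member with the largest difference between the groups. It is the cytosolic PEPCK, the form under the strongest hormonal control in liver. PCK1 (chr20:56136137-56141513, plus strand, hg19) had 131, 96 and 95 counts in untreated replicates 1, 2 and 3, and 375, 494 and 494 counts in r-CRMP2 replicates 1, 2 and 3. As deposited TPM, this was 4.20, 3.60 and 3.16 without r-CRMP2 against 13.2, 17.2 and 15.7 with it. All 3 r-CRMP2 libraries lay above all 3 untreated ones on every scale, and r-CRMP2 replicate 1 was the lowest of its group. The TMM-scaled level went from 4.03 ± 0.627 to 21.3 ± 3.71 CPM (SD, n = 3 each), a log2 fold change of 2.40 with a standard error of 0.19, or 5.28-fold. By size this was rank 109 from the largest rise among all genes tested. The log2 fold change was 2.09 with library size alone, and it lay between 2.29 and 2.53 when each library was left out in turn.

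PCK2, the mitochondrial PEPCK, started from a higher level and went the other way on the TPM scale. PCK2 (chr14:24563340-24573341, plus strand) had 827, 746 and 820 counts in untreated replicates 1, 2 and 3, against 567, 550 and 651 in r-CRMP2 replicates 1, 2 and 3. The deposited TPM was 21.5, 22.6 and 22.1 without r-CRMP2 and 16.2, 15.5 and 16.8 with it, and the groups did not overlap. After TMM scaling the groups were close, at 30.0 ± 0.336 CPM and 27.5 ± 0.925 CPM (SD, n = 3 each), still without overlap. The log2 fold change was -0.12 with a standard error of 0.03 after TMM scaling, and -0.43 with library size alone.

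The balance of the PEPCK isozymes therefore differed between the groups. Summed over both, the deposited TPM was 25.7, 26.2 and 25.3 without r-CRMP2, against 29.4, 32.7 and 32.5 with it. PCK1 made up 16.4%, 13.7% and 12.5% of that sum without r-CRMP2, and 45.0%, 52.6% and 48.4% with it. In the untreated cells PCK2 was thus the main PEPCK transcript, and in r-CRMP2-treated cells the isozymes were at about the same level. A share within 1 library does not depend on the scaling between libraries. The mean share was 14.2% ± 1.97 (SD, n = 3) against 48.6% ± 3.82 (SD, n = 3), and the lowest r-CRMP2 library was above the highest untreated one.

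**Figure D1:**
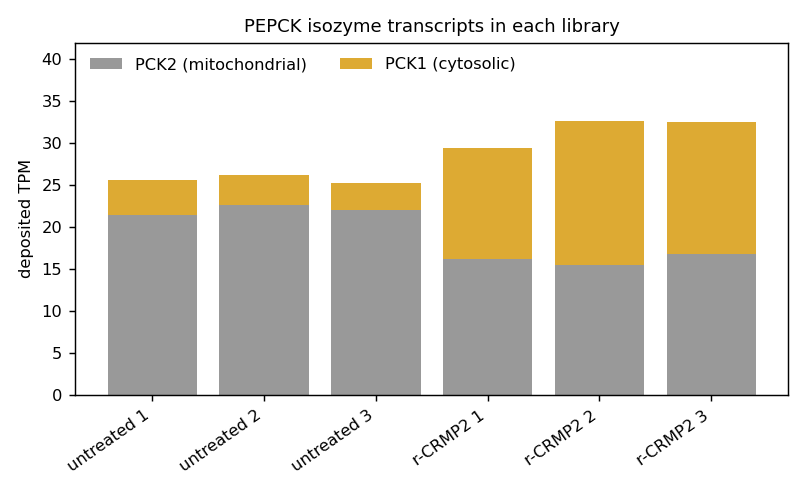
Stacked bars of deposited TPM (linear axis from 0) of PCK2 (grey) and PCK1 (yellow) in each of the 6 libraries. The PCK1 part was 3.16 to 4.20 TPM without r-CRMP2 and 13.2 to 17.2 TPM with it, while the PCK2 part was 21.5 to 22.6 TPM and 15.5 to 16.8 TPM.

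PC, the biotin-dependent carboxylase at the start of the pathway, was lower in the r-CRMP2 libraries. PC (chr11:66615997-66725847, minus strand) had 4901, 4233 and 4657 counts in untreated cells, against 2612, 2341 and 2690 in treated cells. The deposited TPM was 99.6, 100.4 and 98.2 without and 58.4, 51.5 and 54.2 with r-CRMP2, with a wide gap between the groups. The TMM-scaled level went from 172.8 ± 3.02 CPM to 119.1 ± 2.68 CPM (SD, n = 3 each), a log2 fold change of -0.54 with a standard error of 0.02. With library size alone the log2 fold change was -0.85. The gene LRFN4, which encodes a neuronal adhesion molecule, lies inside PC on the opposite strand (chr11:66624876-66627946), and transcripts of both share a run of 394 bases in the annotation at hand. Whether reads were counted by strand is not given in the sources used here, so counts of the pair may be mixed. LRFN4 itself was not lower: it had 61.8 ± 6.62 CPM and 79.5 ± 7.10 CPM (SD, n = 3 each), a log2 difference of 0.36 (standard error 0.12, edgeR quasi-likelihood test, adjusted p = 0.00077), which was 0.05 (adjusted p = 0.6) with library size alone. The miRNA gene MIR3163, also inside PC, had 0 to 2 counts in each library.

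G6PC3, the glucose-6-phosphatase that most tissues carry, had the highest level of all members in either group. G6PC3 (chr17:42148098-42153712, plus strand) had 3116, 2793 and 2964 counts in untreated cells, against 2292, 2271 and 2684 in treated cells. The deposited TPM was 146.7, 153.4 and 144.7 without r-CRMP2 and 118.6, 115.8 and 125.3 with it. Here the scale decided the direction. The TPM groups did not overlap and were lower with r-CRMP2, whereas the TMM-scaled groups overlapped at 111.3 ± 2.79 CPM and 112.8 ± 5.04 CPM (SD, n = 3 each). The log2 fold change was 0.02 with a standard error of 0.04 after TMM scaling, -0.29 with library size alone and -0.31 from the deposited TPM.

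The other 3 members were barely detected. FBP1 (chr9:97365415-97402531, minus strand), the liver-type fructose-1,6-bisphosphatase, had 3, 0 and 1 counts without r-CRMP2 and 2, 1 and 0 with it. FBP2 (chr9:97320996-97356114, minus strand), the muscle-type enzyme, had 2, 7 and 2 counts without r-CRMP2 and 7, 2 and 1 with it. G6PC (chr17:41052814-41066450, plus strand), the glucose-6-phosphatase of liver and kidney, had 0, 1 and 0 counts without r-CRMP2 and 3, 2 and 0 with it. These genes stayed under the filter and no fold change is given for them. A count of 0 allows up to 3 counts, or 0.117 to 0.137 CPM at these depths, a limit that covers counting error only. The lncRNA gene PCAT7 overlaps FBP2 on the opposite strand (chr9:97317327-97331038), and its transcripts share runs of 168 bases with FBP2 and 288 bases with FBP1. PCAT7 had 25 to 47 counts in the untreated libraries and 9 to 14 in the r-CRMP2 libraries (log2 fold change -1.32, standard error 0.30, adjusted p = 0.00475).

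**Figure D2:**
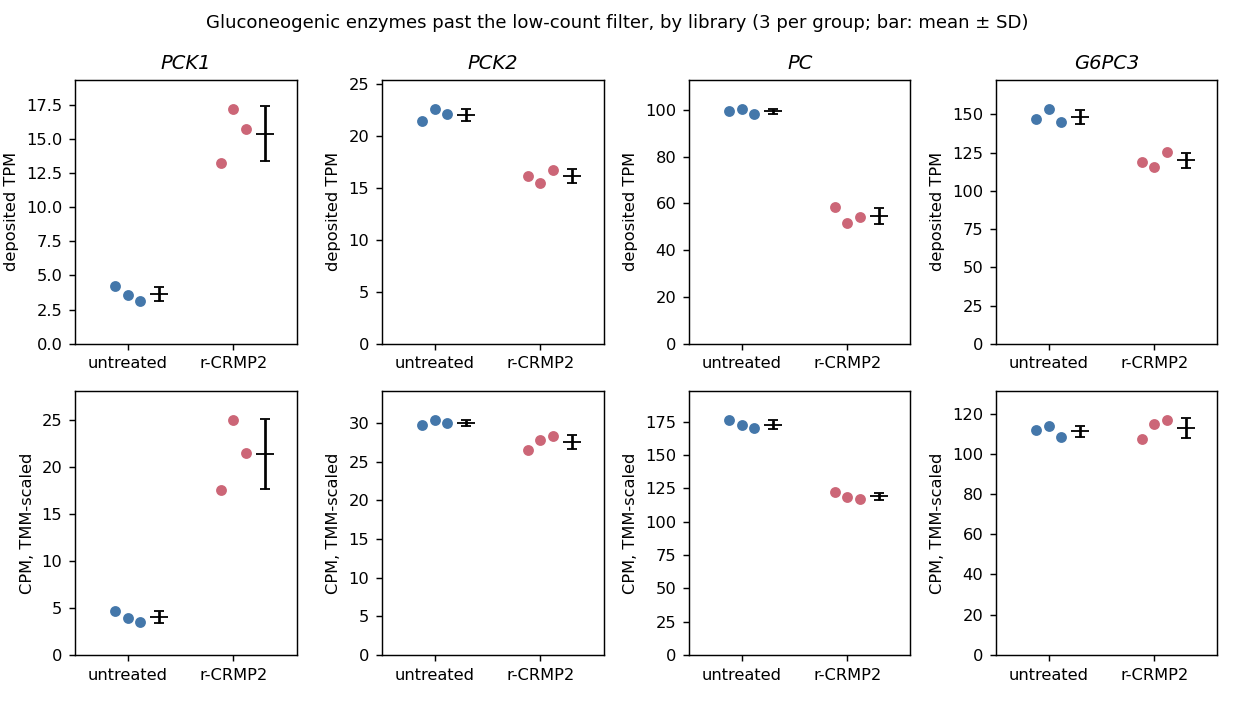
Levels of the 4 members past the low-count filter in each library, as deposited TPM (upper row) and TMM-scaled CPM (lower row), both on linear axes from 0. Points are libraries (blue untreated, red r-CRMP2) and bars give the mean ± SD of 3 libraries. PCK1 stands higher with r-CRMP2 and PC lower in both rows, and G6PC3 is lower in TPM but overlaps at 107.1 to 116.7 CPM.

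Taking all members, 4 passed the filter on low counts and 3 did not. At an adjusted p threshold of 0.05 with a log2 fold change threshold of 1, 1 member was higher (PCK1) and 0 were lower, where 5.12% of all genes tested were higher and 8.86% lower. With the adjusted p threshold alone, 1 was higher (PCK1) and 1 lower (PC), where the shares over all genes tested were 28.2% and 30.1%. The TMM-scaled groups did not overlap for 1 member that was higher and 2 that were lower, where 30.9% and 33.3% of all genes tested had no overlap in these directions. Since the members were chosen with this contrast known, nothing is read from these counts.

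By deposited TPM, the order of levels in the untreated cells was G6PC3 (148 on average), PC (99.4), PCK2 (22.1), PCK1 (3.65), FBP2 (0.261), FBP1 (0.0644) and G6PC (0.0081). The first 5 were separated by gaps between the libraries' ranges, and the ranges overlapped from FBP2 to FBP1 and from FBP1 to G6PC. In the r-CRMP2 cells the order of the means was the same, but the range of PCK1 (13.2 to 17.2) now overlapped that of PCK2 (15.5 to 16.8). The replicate spread also differed between members. The coefficient of variation of TMM-scaled CPM was 15.6% and 17.4% for PCK1 in the untreated and r-CRMP2 groups, and at most 4.46% for PCK2, PC and G6PC3. PCK1 also had the fewest counts of these genes (95 to 131 in the untreated libraries), and counting error is larger at fewer counts. Its part in the spread was not tested.

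Promoter sequences are shown for PC, PCK2 and G6PC3, the members with the most transcript in the untreated cells, so that their start regions can be read side by side. They were taken from RefSeq on GRCh38.p14, with windows for 6 of the 7 members (all but PCK1), and run 5′ to 3′ on the gene's strand from 250 bases before to 50 bases after the transcript start. Where the table has several starts, the one farthest upstream is shown. Capitals mark ACGTG, a core of the sites bound by HIF factors and by other basic helix-loop-helix proteins, and TGACG, a core of the cAMP response element, on either strand.
PC (chr11:66958334-66958633, minus strand): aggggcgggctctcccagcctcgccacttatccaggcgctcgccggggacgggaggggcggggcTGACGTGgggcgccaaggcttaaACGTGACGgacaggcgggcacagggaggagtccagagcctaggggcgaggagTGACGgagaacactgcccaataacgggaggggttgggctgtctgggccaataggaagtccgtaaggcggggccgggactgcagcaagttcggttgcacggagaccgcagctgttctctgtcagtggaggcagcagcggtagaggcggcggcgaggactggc
PCK2 (chr14:24094061-24094360, plus strand): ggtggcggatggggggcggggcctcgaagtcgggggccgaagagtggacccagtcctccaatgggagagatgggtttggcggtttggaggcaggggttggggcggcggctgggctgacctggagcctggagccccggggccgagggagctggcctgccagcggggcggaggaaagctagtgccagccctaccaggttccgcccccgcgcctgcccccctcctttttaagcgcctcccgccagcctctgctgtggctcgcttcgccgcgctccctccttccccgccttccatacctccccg
G6PC3 (chr17:44070423-44070722, plus strand): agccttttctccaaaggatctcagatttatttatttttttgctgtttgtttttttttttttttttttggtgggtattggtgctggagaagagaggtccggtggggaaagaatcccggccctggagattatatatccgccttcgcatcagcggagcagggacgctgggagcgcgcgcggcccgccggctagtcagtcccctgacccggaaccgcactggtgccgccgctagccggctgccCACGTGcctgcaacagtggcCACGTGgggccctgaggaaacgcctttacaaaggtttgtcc

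In the PC window, ACGTG was found at -184 and -163 and TGACG at -186, -160 and -111, counting the first base of each match from the transcript start. The matches at -186 and -184 share bases, as do those at -163 and -160. The windows of the further PC starts (chr11:66907904-66908203 and chr11:66905985-66906284), not shown, held neither motif. Which start these cells use was not tested. The G6PC3 window held the palindrome CACGTG at -11 and again at 9, each of which reads as ACGTG on both strands, and no TGACG. The PCK2 window, with 71.7% G and C, held neither motif in these letters. GCGTG, the other common core of HIF sites, was searched as well and was in none of the 3 windows. All motifs were searched on both strands, and over 35116 RefSeq windows of the same length ACGTG was present in 21.4%, TGACG in 24.6% and GCGTG in 36.5%. A match is a description of the letters and not of a bound site.

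The enzymes were next set beside the glycolytic enzymes that work against them. At the pyruvate step, the pyruvate kinases PKM and PKLR summed to 2727 to 3053 TPM in the untreated libraries and 3115 to 3404 TPM in the r-CRMP2 libraries. Their ratio to PC was 27.8 to 30.7 without r-CRMP2 and 55.9 to 62.8 with it, and these ranges are far apart. Their ratio to the summed PEPCK isozymes was 107.9 to 118.8 and 95.4 to 110.8, and these ranges overlap. At the glucose step, the ratio of summed hexokinase to summed glucose-6-phosphatase TPM was 1.25 to 1.43 without r-CRMP2 and 3.12 to 3.20 with it. That difference came with hexokinases at 182 to 209 TPM and 362 to 401 TPM in the 2 groups, and with glucose-6-phosphatases at 144.7 to 153.5 TPM and 115.9 to 125.3 TPM. Unlike their ratio, these levels depend on the scaling between libraries. The glucose-6-phosphatase sum was nearly all G6PC3, whose groups overlapped after TMM scaling (log2 fold change 0.02). At the fructose step, FBP1 and FBP2 together held 0.0633 to 0.597 TPM over all libraries, against 583 to 685 TPM of the phosphofructokinases. Such ratios within a library do not depend on the scaling between libraries, and since they include members they are given without a test.

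**Figure D3:**
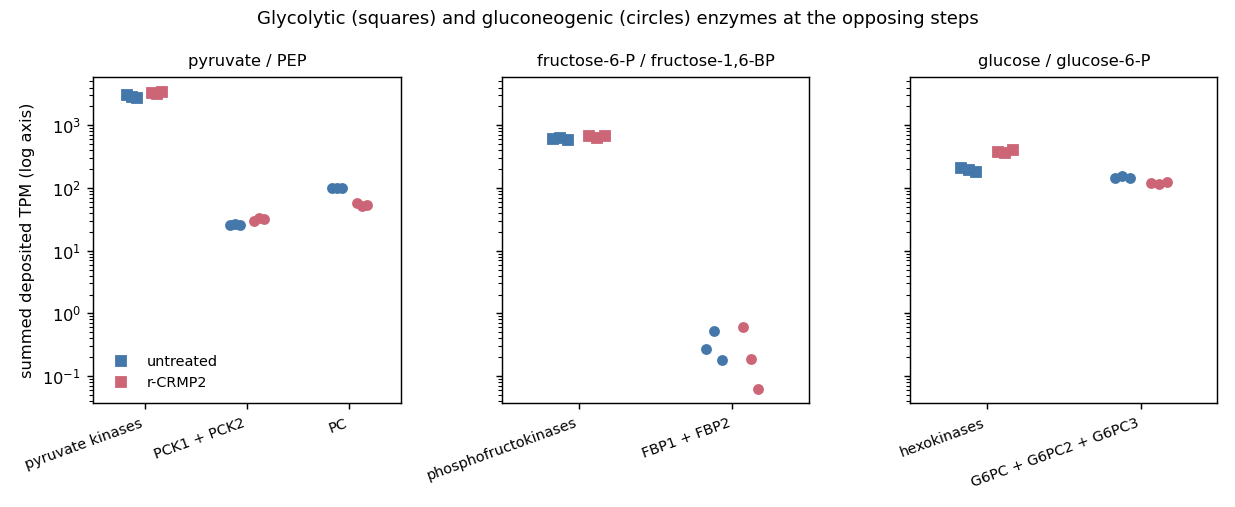
Summed deposited TPM (log axis) of glycolytic enzymes (squares) and gluconeogenic enzymes (circles) at the 3 opposing steps, with 1 point for each library (blue untreated, red r-CRMP2). The fructose-1,6-bisphosphatases lie under 1 TPM in every library, PC lies at 98.2 to 100.4 TPM without and 51.5 to 58.4 TPM with r-CRMP2, and the hexokinases lie higher with r-CRMP2.

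Genes around the pathway were followed in 8 lists of 85 genes, of which 75 were tested. At both thresholds, 10 of the 75 (13.3%) were higher and 8 (10.7%) were lower in the r-CRMP2 cells. These totals were 5 and 16 when only library size was used, and 9 and 4 with at least 10 counts in every sample. With the adjusted p threshold alone, 30 (40.0%) were higher, 26 (34.7%) lower and 19 did not pass. These stand beside the shares of all genes tested given above, and the lists were written with earlier results of these data known. All adjusted p-values below come from the edgeR quasi-likelihood fit and are adjusted over all genes tested.

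The lists nearest to the members were those that hand substrate to them. Of 15 genes for pyruvate, malate and aspartate supply to PC and PEPCK, 0 were higher and 1 was lower at both thresholds, and 4 were higher and 3 lower by adjusted p alone, with a median log2 fold change of 0.03 (-0.28 with library size alone). The gene past both thresholds was SLC25A13, the mitochondrial aspartate-glutamate carrier citrin, which fell from 44.8 ± 3.51 CPM to 21.4 ± 0.585 CPM (SD, n = 3 each; log2 fold change -1.07, standard error 0.07, adjusted p = 1.67e-09). Without untreated replicate 3 its log2 fold change was -1.0 and missed the fold threshold. Of 4 tested genes for the entry of glycerol, 0 were past both thresholds, 3 were lower by adjusted p alone and the median was -0.36 (-0.67 with library size alone, where 1 was lower at both thresholds). Of 9 genes for biotin supply and the other biotin carboxylases, which share with PC the need for bound biotin, 1 was lower at both thresholds, and 1 was higher and 4 lower by adjusted p alone, with a median of -0.04 (-0.35 with library size alone, where 3 were lower at both thresholds). That gene was ACACB, the mitochondria-bound acetyl-CoA carboxylase, which fell from 20.6 ± 1.49 CPM to 8.07 ± 1.31 CPM (SD, n = 3 each; log2 fold change -1.35, standard error 0.14, adjusted p = 1.05e-08).

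On the glucose side of G6PC3, the sugar phosphate transporters of the SLC37 family and G6PC2, the islet glucose-6-phosphatase, gave 4 tested genes with a median log2 fold change of -0.46 (-0.77 with library size alone). At both thresholds 1 was higher and 0 were lower, against 0 and 1 with library size alone or without r-CRMP2 replicate 1. By adjusted p alone 1 was higher and 3 were lower, the lower ones including SLC37A4, the transporter that carries glucose-6-phosphate to the glucose-6-phosphatases (log2 fold change -0.33, standard error 0.05, adjusted p = 0.00133, chosen after its value was seen). SLC37A2, the one gene of this list past both thresholds, was near the detection limit at 0.356 ± 0.115 CPM and 0.762 ± 0.321 CPM (SD, n = 3 each). The rise was 1.09 on the log2 scale (standard error 0.43, adjusted p = 0.0467), and the groups overlapped. The call was lost without untreated replicate 1 or 3 or r-CRMP2 replicate 1 or 2 (log2 fold change 0.90 to 0.97, adjusted p 0.139 to 0.16), with library size alone (adjusted p = 0.142), no filter on low counts (adjusted p = 0.0778), DESeq2 (adjusted p = 0.0795) and the replicate block (adjusted p = 0.0595).

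The reversible enzymes that gluconeogenesis shares with glycolysis had the median farthest from 0 of the 8 lists after TMM scaling, but not with library size alone. Of 12 tested, 5 were higher and 1 lower at both thresholds, 9 were higher and 3 lower by adjusted p alone, and the median log2 fold change was 0.81 (0.50 with library size alone). With library size alone the counts at both thresholds were 2 and 2, and they were 3 higher and 1 lower without untreated replicate 3. Without r-CRMP2 replicate 2, 2 were lower, and with at least 10 counts in every sample, where GAPDHS was not tested, 0 were lower. ENO2, the neuronal enolase, rose from 191.9 ± 22.3 CPM to 652.4 ± 50.8 CPM (log2 fold change 1.77, standard error 0.12, adjusted p = 2.29e-12). GAPDH, the triose phosphate dehydrogenase, rose from 6831 ± 675 CPM to 17483 ± 1316 CPM (log2 fold change 1.36, standard error 0.10, adjusted p = 6.73e-11), though its many processed pseudogenes make the counting of its reads uncertain. The aldolase ALDOC rose by 1.06 on the log2 scale (standard error 0.10, adjusted p = 6.46e-10), and by 0.75 with library size alone, which is under the fold threshold. GAPDHS, the sperm form of GAPDH, fell from 2.93 ± 0.247 CPM to 0.525 ± 0.107 CPM (log2 fold change -2.46, standard error 0.17, adjusted p = 3.84e-07). Each of these values in CPM is a mean ± SD of 3 libraries.

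The list of opposing irreversible glycolytic enzymes had 8 tested genes, of which 1 was higher at both thresholds and 6 by adjusted p alone, with a median log2 fold change of 0.44 (0.13 with library size alone). HK2, the inducible hexokinase, rose from 241 ± 18.0 CPM to 876 ± 27.9 CPM (SD, n = 3 each; log2 fold change 1.86, standard error 0.07, adjusted p = 1.09e-13). Fructose-2,6-bisphosphate, the metabolite that inhibits FBP1 and activates phosphofructokinase, had 4 tested genes in its control list, of which 1 was higher and 1 lower at both thresholds, 2 were higher and 2 lower by adjusted p alone, and the median was 0.14 (-0.17 with library size alone). PFKFB3, which mainly makes the metabolite, rose from 33.5 ± 0.721 CPM to 97.3 ± 6.97 CPM (SD, n = 3 each; log2 fold change 1.54, standard error 0.06, adjusted p = 2.01e-12). TIGAR, which breaks it down, fell from 12.4 ± 1.18 CPM to 3.83 ± 0.287 CPM (SD, n = 3 each; log2 fold change -1.70, standard error 0.10, adjusted p = 3.64e-09).

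Of 19 tested transcriptional regulators known to act on PCK1, G6PC and the other gluconeogenic genes in liver, 2 were higher and 4 lower at both thresholds, 7 were higher and 8 lower by adjusted p alone, and the median log2 fold change was -0.12 (-0.43 with library size alone, 0.05 with at least 10 counts in every sample). With library size alone the counts at both thresholds were 1 and 7, and with at least 10 counts in every sample they were 2 and 1. CEBPA and CEBPB, the C/EBP factors that bind the PCK1 promoter in liver, moved in opposite directions. CEBPA fell from 13.4 ± 0.292 CPM to 3.42 ± 0.975 CPM (SD, n = 3 each; log2 fold change -1.96, standard error 0.22, adjusted p = 3.88e-09). CEBPB rose from 202 ± 21.4 CPM to 582 ± 87.2 CPM (SD, n = 3 each; log2 fold change 1.53, standard error 0.16, adjusted p = 1.05e-10). KLF15, a fasting-induced factor, fell from 0.810 ± 0.266 to 0.236 ± 0.132 CPM (log2 fold change -1.76, standard error 0.48, adjusted p = 0.00484), and HNF4A, a hepatocyte nuclear receptor, from 0.514 ± 0.0346 to 0.185 ± 0.0330 CPM (log2 fold change -1.44, standard error 0.11, adjusted p = 0.017). Both were near the detection limit, where these standard errors can be too small. The call of HNF4A was lost without r-CRMP2 replicate 1 (adjusted p = 0.0532) or 2 (adjusted p = 0.062), with DESeq2 (adjusted p = 0.0662) and with no filter on low counts (adjusted p = 0.065). PPARGC1A, the coactivator of the fasting response, was at -0.12 on the log2 scale (standard error 0.09, adjusted p = 0.404) and was chosen after its value was seen.

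**Figure D4:**
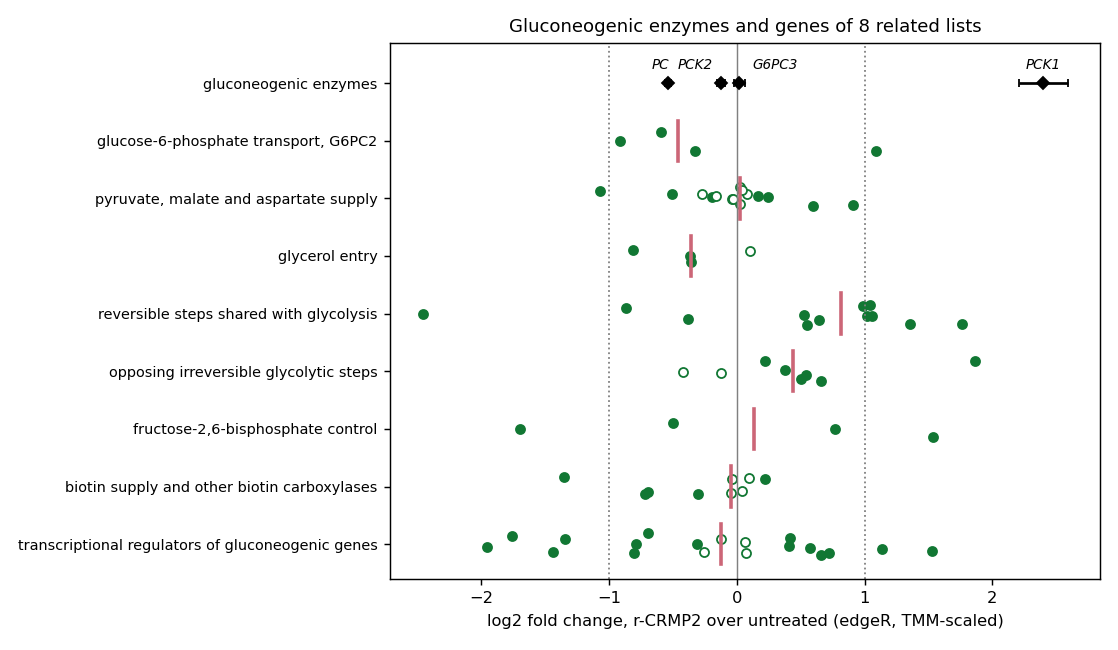
Log2 fold change (r-CRMP2 over untreated, TMM-scaled) of the 4 tested members (black diamonds with standard errors) and of the 75 tested genes of 8 related lists (green circles, filled where the adjusted p passed 0.05, and spread vertically only for visibility). Red bars are list medians and dotted lines mark the fold threshold of 1. PCK1, the member that this contrast had singled out, lies at 2.40 to the right of every listed gene, the next being HK2 at 1.86.

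The genes whose levels over the 6 libraries were most like those of PCK1 were PER1, TIPARP and GPRC5A. Likeness was the root mean square difference of log2 CPM, centred on the untreated mean, computed for 12725 genes whose mean deposited count reached 50. It was 0.106 for PER1, the circadian clock repressor, which had 114.8, 99.7 and 86.6 CPM in the untreated libraries and 449.8, 515.4 and 525.4 CPM in the r-CRMP2 libraries. It was 0.108 for TIPARP, an ADP-ribosyltransferase, with 15.3 to 16.1 CPM without r-CRMP2 and 67.4 to 96.0 CPM with it. It was 0.144 for GPRC5A, an orphan receptor of the G protein-coupled family, with 193 to 309 CPM without r-CRMP2 and 1153 to 1458 CPM with it. Their log2 fold changes were 2.31 (standard error 0.14), 2.40 (standard error 0.15) and 2.41 (standard error 0.22), against 2.40 for PCK1. The libraries are shared by all these genes and fall into the 2 groups, so likeness over them is a description only.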

How the data were processed

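Reads from 6 libraries were processed by the authors, whose processing notes name hg19, FastQC, HISAT2 and DESeq2 without versions. The counting tool, annotation and use of strand are not given in the sources used here. The authors deposited, for each library, counts per gene without normalization, and TPM, which differed from count over length, rescaled, by at most 4.72e-06. In the deposited files 27 gene names had turned into dates and were kept as listed. Counts were compared by edgeR 4.0.16 (quasi-likelihood test, limma 3.58.1, R 4.3.3) after filterByExpr and TMM, over all genes, with Benjamini-Hochberg adjustment. Standard errors come from the replicate spread of log2 CPM with a prior count of 2. The prior count draws low counts together, so the standard errors of genes near the detection limit can be too small. Replicate pairs differed by more than sampling noise (chi-square of 3.62 to 10.3 per degree of freedom), so no library was counted as deposited 2 times, which does not show separate cultures. Members and lists were chosen with earlier results of these data known. Up to 4 genes past both thresholds with the largest fold changes were named per list, with the 3 genes most like PCK1, and genes overlapping a member. Coordinates are as deposited (hg19), and promoter windows are on GRCh38.p14. Overlaps in transcript sequence of at least 59 bases were searched in GENCODE 29. Alternatives were DESeq2 1.42.0, RLE factors, library size alone, other filters on low counts, the replicate block, and leaving out each library. The ratio of deposited TPM was an alternative chosen after seeing the data.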

Additional observations from a re-analysis of the deposited data

How the results depend on the processing

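With library size alone, 489 genes were higher and 2548 lower at both thresholds, so that 16.1% of the genes called were higher, against 831, 1437 and 36.6% with TMM. The log2 fold changes with library size alone and from the ratio of deposited TPM were 2.09 and 2.07 for PCK1, -0.43 and -0.45 for PCK2, -0.85 and -0.86 for PC, and, with the sign turned, -0.29 and -0.31 for G6PC3. List medians with library size alone were -0.77 (glucose-6-phosphate transport), -0.67 (glycerol entry), 0.50 (reversible steps), 0.13 (opposing glycolytic steps), -0.35 (biotin) and -0.43 (regulators), and the sign turned for supply (-0.28) and fructose-2,6-bisphosphate control (-0.17). When every sample had to hold 10 counts, 946 genes were lower and the medians were -0.61 for glucose-6-phosphate transport, 0.97 for the reversible steps and 0.05 for the regulators, the sign of the last being turned, with fewer genes tested. With the adjusted p threshold alone, 4574 genes were higher and 4875 lower. Leaving out each library in turn gave -0.14 to -0.08 for PCK2, 0.00 to 0.07 for G6PC3, and -0.03 to 0.07 for the supply median, which was negative without untreated replicate 2 or r-CRMP2 replicate 2 (-0.01). The causes were not tested. Of 52 member fold changes under alternatives, 43 moved by less than the replicate spread. Of 192 counts of list genes at both thresholds under alternatives, 170 stayed within 1.5 times and 22 moved further. The 170 include counts of 0 that stayed at 0. Of 223 fold changes of other named genes, 208 stayed past their threshold and the other 15 kept their direction.

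Across genes, libraries with the same number deviated from their groups with correlations of -0.021, 0.004 and -0.025. All genes tested weigh alike in these correlations, also those with few counts, so they do not show whether the libraries were paired. With the replicate block, 818 genes were higher and 1437 lower, and the log2 fold changes were 2.39 for PCK1, -0.12 for PCK2, -0.54 for PC and 0.02 for G6PC3. Depth limits FBP1, FBP2 and G6PC, whose counts of at most 7 per library allow no comparison.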
